A study of Macaca mulatta with 20 samples.

Results

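The genes described here are the cAMP signalling machinery of the corpus luteum of rhesus macaques, in tissue of simulated early pregnancy. They were taken by name from the array's annotation. Probe sets with 1 gene symbol were kept where that symbol named a numbered adenylyl cyclase (ADCY), phosphodiesterase (PDE), A-kinase anchoring protein (AKAP), Rap exchange factor (RAPGEF), regulator of G-protein signalling (RGS) or CREB factor, a subunit of protein kinase A (PRKAC, PRKAR), or GNAS. The names match 165 of the 52707 probe sets tested and 77 of the 14132 genes with 1 symbol. GNAS, the gene of the stimulatory G-protein subunit, had 0 probe sets with a single symbol and is not analysed here. Each gene is represented by the probe set with the highest mean log2 signal over the 20 arrays, and 43 of the 77 genes had at least 1 further probe set, up to 9 for RAPGEF6. There were 9 adenylyl cyclases, 21 phosphodiesterases, 7 kinase subunits, 9 anchoring proteins, 6 Rap exchange factors, 18 RGS genes and 7 CREB genes. A name does not make a gene part of cAMP signalling: PDE12 is an RNase and no cyclic nucleotide phosphodiesterase, PDE5A and the PDE6 enzymes act on cGMP, and RGS7BP and RGS9BP are binding proteins of RGS proteins.

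The corpus luteum forms from the ovulated follicle and makes progesterone. Luteinising hormone and chorionic gonadotropin act on its cells through 1 receptor, whose G protein turns on adenylyl cyclases, the enzymes that make cAMP from ATP. cAMP releases the catalytic subunits of protein kinase A from their regulatory subunits and also activates the Rap exchange factors known as EPAC (RAPGEF3 and RAPGEF4). The kinase phosphorylates CREB factors, which bind target genes, anchoring proteins hold it at places in the cell, and phosphodiesterases break cAMP down. RGS proteins shorten G-protein signals by speeding GTP hydrolysis, most of them on the inhibitory and Gq classes of subunits.

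Female macaques received human chorionic gonadotropin (hCG) into muscle from luteal day 9, in doses that went up in 9 steps, the first of 15 and the last of 2880 IU. Corpora lutea came out after 1, 3, 6 or 9 days of hCG, on luteal days 10, 12, 15 or 18, and untreated ones of luteal day 10 were the baseline, with 4 arrays in each of the 5 groups. The day 10 groups share a luteal day, while in the later groups luteal day, days of hCG and dose went up together and cannot be told apart. The labels do not say that a group's corpora lutea came from separate animals, so the spread behind the p-values may be technical in part, and precision is limited by the number of arrays.

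Signals are linear intensities that the authors scaled to a common level on every array, and tests were run on log2(signal + 16) with limma. A log2 change is the hCG group minus untreated day 10 unless a step between hCG groups is named. It understates the change of dim probe sets. Signals of different probe sets are not set against each other, apart from the summed marker signals, in which bright probe sets weigh most. A change passed where the Benjamini-Hochberg adjusted p over all 52707 probe sets was under 0.05. On the third principal component, with 8.4% of the variance, 3 arrays stood away from the rest, replicate 1 of hCG day 12, replicate 2 of hCG day 15 and replicate 2 of the untreated group. Among the 77 members, 8 had a mean signal under 16, 29 under 50 and 8 over 1000. In whole tissue, fewer cells of a type and less RNA per cell cannot be told apart.

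AKAP1 and RGS9 were higher after 1 day of hCG. PDE7B was higher, and PDE8B and RGS16 were lower, after 6 and 9 days. In limma's F test over the 5 groups 5 of the 77 members passed, which is 6.49%, against 7.01% of all genes (1 probe set each) and 4.52% of all probe sets. The members' share is close to that of all genes and is not read as a result about the machinery. Without the 3 arrays apart on component 3 there were 3 such members, AKAP1, PDE12 and RGS16. At an unadjusted p under 0.05 there were 19 members, 24.7%, against 22.9% of all genes.

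After 1 day of hCG 2 members were higher and 0 lower, 2.6% of 77, against 1.54% of all genes (1.12% higher, 0.425% lower). After 3 days 0 passed in limma, against 0.453% of all genes (0.262% higher, 0.191% lower), with 12 at an unadjusted p under 0.05. After 6 days 1 was higher and 2 were lower, 3.9%, against 1.97% of all genes (0.969% higher, 0.998% lower). After 9 days 1 was higher and 2 were lower, again 3.9%, against 6.09% of all genes (2.78% higher, 3.31% lower). The median log2 change of the members was -0.04, -0.03, -0.05 and -0.09 after 1, 3, 6 and 9 days, and that of all genes -0.01, -0.01, -0.03 and -0.03. At an unadjusted p under 0.05 there were 16, 12, 9 and 17 members on days 10, 12, 15 and 18, which is 20.8%, 15.6%, 11.7% and 22.1%, beside 14.6%, 11%, 14.6% and 21.1% of all genes. The members within 0.5 of 0 on the log2 scale were 61, 68, 67 and 64 of 77 on these days, which is 79.2%, 88.3%, 87% and 83.1%, beside 90.6%, 91.7%, 89.5% and 85.1% of all genes. These shares were not tested against each other.

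**Figure D1:**
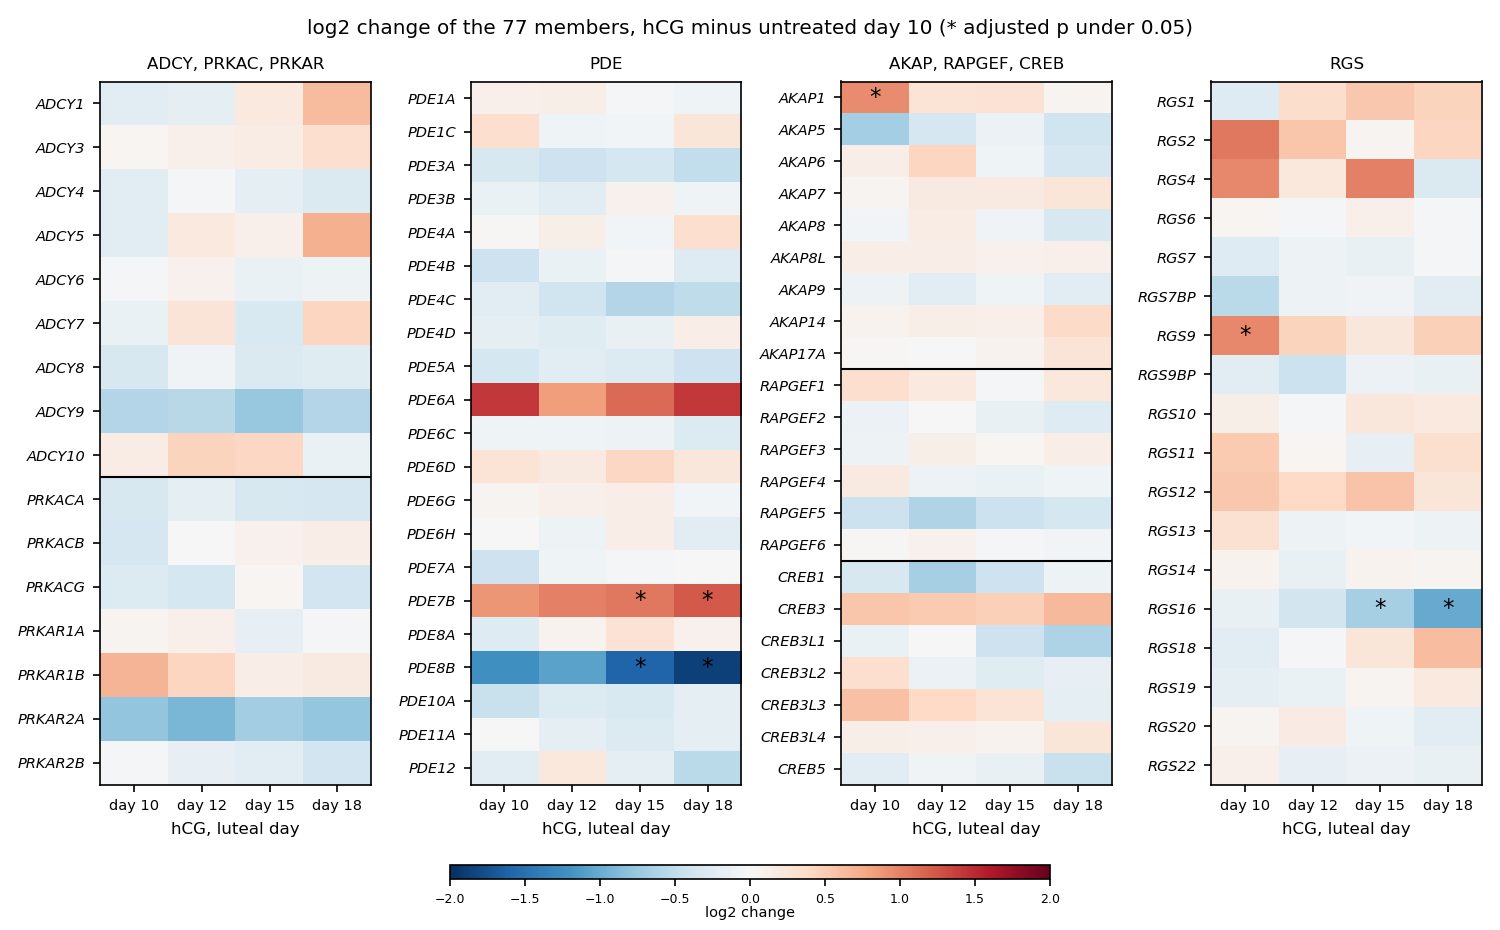
The grid shows the log2 change of each of the 77 members, hCG minus untreated day 10, for hCG days 10, 12, 15 and 18 from left to right, by family, with blue for lower and red for higher signal in hCG. A star marks an adjusted p under 0.05, found for AKAP1 and RGS9 on day 10, and for PDE7B, PDE8B and RGS16 on days 15 and 18. The widest changes are those of PDE8B (-1.87) and PDE6A (1.42) on day 18, and that of PDE6A did not pass.

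Arrays of the hCG and untreated groups did not overlap for 8, 3, 10 and 12 of the 77 members on days 10, 12, 15 and 18. These are 10.4%, 3.9%, 13% and 15.6% of the members, beside 10.5%, 6.52%, 9.04% and 15.7% of all genes. On day 18 the 6 members with every hCG array above every untreated array were ADCY1, ADCY5, PDE6A, PDE7B, AKAP7 and CREB3. The 6 with every hCG array below were PDE4C, PDE8B, PDE12, PRKAR2A, RGS16 and CREB5. Of these 12, the 3 that passed were PDE7B, PDE8B and RGS16.

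Adenylyl cyclases make cAMP, and 0 of the 9 passed limma's F test, with 3 at an unadjusted p under 0.05. Over all genes these shares were 7.01% and 22.9%. ADCY1, a cyclase that calcium and calmodulin stimulate, gave signals of 123.0, 111.9, 113.2 and 121.5 after 9 days of hCG, against 39.9, 49.8, 102.0 and 110.2 in untreated corpora lutea. The 4 day 18 arrays lay close together and above all others of the study, while the untreated arrays fell into a low and a high pair. The day 18 change was 0.63 ± 0.20 (SE, adjusted p = 0.084), and the F test gave an adjusted p of 0.052. Without untreated replicate 3 or 4, the high pair, the day 18 change was 0.78 (adjusted p = 0.038) or 0.82 (adjusted p = 0.02).

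ADCY5, a cyclase that calcium inhibits, gave 94.9, 83.7, 45 and 69.4 on hCG day 18 and 37.2, 37.8, 35.5 and 38.4 in untreated tissue. All day 18 arrays were higher, by 0.71 ± 0.22 (SE, adjusted p = 0.079). Its other probe set had a change of 0.97 ± 0.40 (SE, adjusted p = 0.23) and overlapped. ADCY4, a cyclase that G-protein beta and gamma subunits stimulate, averaged 460.2 ± 55.8 on hCG day 18 and 565.9 ± 72.6 in untreated tissue (SD, n = 4 each), a log2 change of -0.29 ± 0.15 (SE, adjusted p = 0.38). The soluble cyclase ADCY10, which bicarbonate activates and which was picked after its values were seen, had changes of 0.45 and 0.42 on days 12 and 15 (adjusted p = 0.43 and 0.42). ADCY3, ADCY6, ADCY7, ADCY8 and ADCY9 had adjusted F p-values of 0.64 or more in limma.

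Phosphodiesterases break cyclic nucleotides down, and 2 of 21 passed the F test, where 7.01% of all genes did. PDE8B was lower and PDE7B higher. Both enzymes are specific for cAMP. PDE8B (probe set MmuSTS.1082.1.S1_at), of the high-affinity PDE8 pair, gave 124.9, 73.8, 64.2 and 101.2 on hCG day 18 against 273.3, 608.9, 349.6 and 304.6 in untreated corpora lutea. Every day 18 array lay below every untreated array. The change was -1.87 ± 0.35 (SE, adjusted p = 0.004), or 3.65-fold lower. On day 15 the arrays gave 96, 150.5, 111.6 and 86.8, again all below the untreated ones, with a change of -1.61 ± 0.35 (SE, adjusted p = 0.026).

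On days 10 and 12 PDE8B averaged 164.4 ± 94.1 and 180.5 ± 91 (SD, n = 4 each). The untreated mean was 384.1 ± 153.1. On each of these days 1 hCG array lay within the untreated range, and neither change passed (-1.22 with adjusted p = 0.12, and -1.08 with adjusted p = 0.27). Untreated replicate 2, at 608.9 the highest of the 20, is among the arrays apart on component 3. Without these 3 arrays the day 18 change was -1.63 (adjusted p = 0.013), and that of day 15 was -1.51 (adjusted p = 0.07), which no longer passed. The day 15 call also ended without untreated replicate 2 or 3 and without hCG day 15 replicate 1 or 4, with adjusted p from 0.058 to 0.097. A pseudocount of 1 ended that call too.

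A second probe set of PDE8B passed on the same days, with -1.31 on day 15 (adjusted p = 0.034) and -1.48 on day 18 (adjusted p = 0.0069). Its day 18 call held in 29 of 29 alternatives and its day 15 call in 18 of 29 (adjusted p up to 0.13). The day 15 call ended with a pseudocount of 1, with the replicate block, when the 3 arrays apart on component 3 were dropped, and when any 1 of the untreated or hCG day 15 arrays was. The third, with signals of 53.3 to 61.8 in untreated tissue, changed by less, -0.28 and -0.37, and did not pass (adjusted p = 0.6 and 0.36). PDE8A, the other PDE8 enzyme, averaged 1484 ± 184.7 on hCG day 18 against 1394 ± 179.2 in untreated tissue (SD, n = 4 each). Its change was 0.09 ± 0.18 (SE, adjusted p = 0.89).

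PDE7B (probe set MmugDNA.40653.1.S1_at, its only one) gave 258.9, 555.1, 426.3 and 314.3 on hCG day 18, against 111.2, 169.0, 205.7 and 130.4 in untreated tissue. On every one of the 4 days all hCG arrays lay above all untreated arrays. The means on days 10, 12, 15 and 18 were 302.2 ± 109.0, 324.1 ± 65.9, 335.4 ± 70.2 and 388.6 ± 131.0 (SD, n = 4 each), and the untreated mean was 154.1 ± 41.9. The change of 1.23 ± 0.25 on day 18 (SE, adjusted p = 0.0067) and that of 1.06 ± 0.25 on day 15 (adjusted p = 0.039) passed. The changes of 0.88 and 1.01 on days 10 and 12 did not pass (adjusted p = 0.11 and 0.1). Without the 3 arrays apart on component 3 the day 18 change was 1.28 (adjusted p = 0.021). With the replicate number as a block, the day 12 change of 1.01 had an adjusted p of 0.028. The day 15 call ended without the 3 arrays apart on component 3 (adjusted p = 0.091), and without untreated replicate 1, 2 or 4 or hCG day 15 replicate 1, 3 or 4 (adjusted p from 0.063 to 0.14). It also ended with a pseudocount of 1 or 64 and in a fit of the 2 groups alone.

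**Figure D2:**
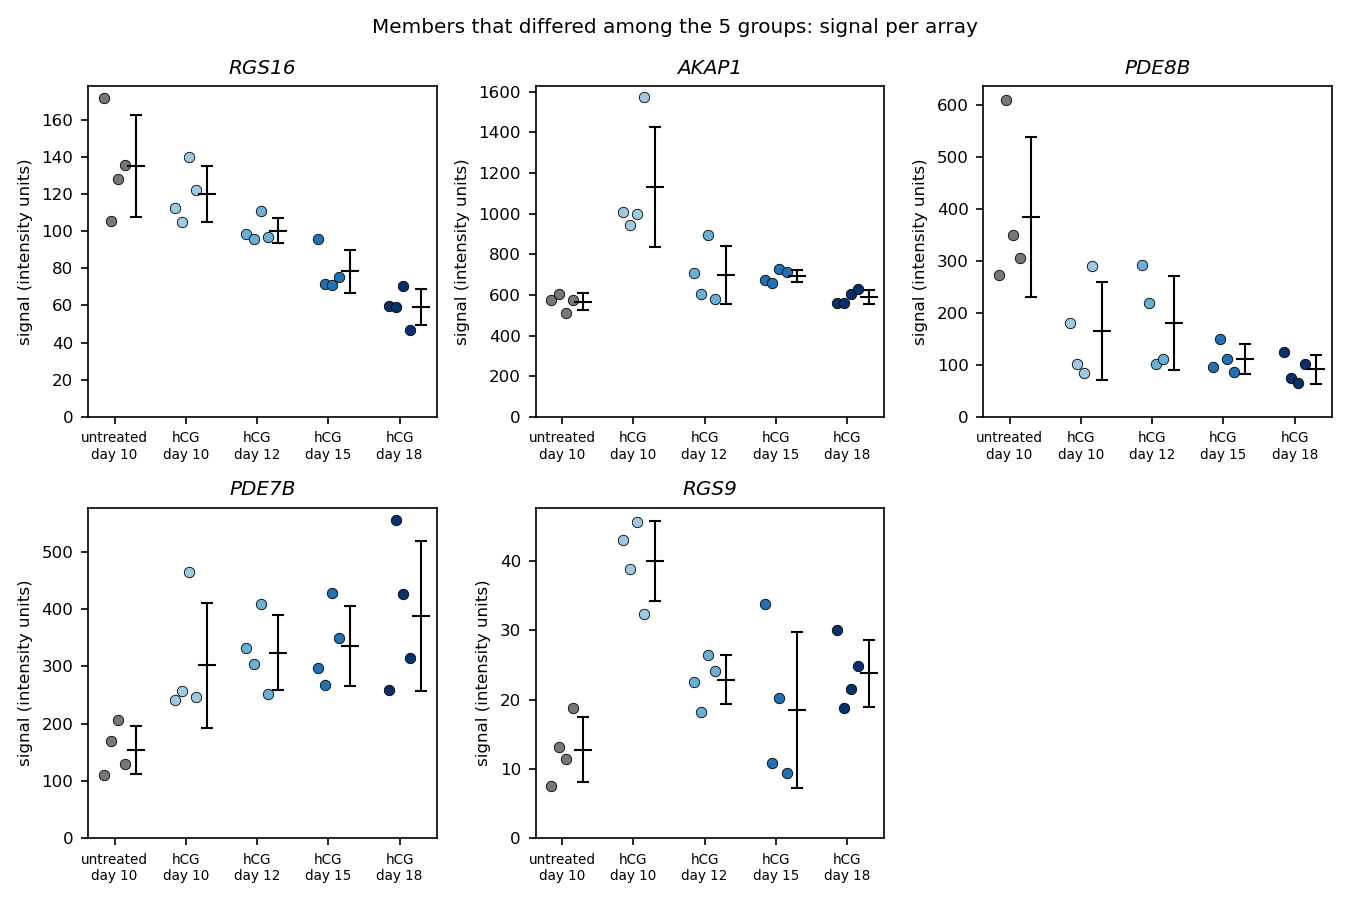
Each panel plots the signal (intensity units, linear axis from 0) of 1 of the 5 members that passed the F test, with a point per array and the mean with its SD beside it (4 arrays a group), in the order untreated day 10 and hCG days 10, 12, 15 and 18. RGS16 and PDE8B are lowest on day 18 (means 59 and 91), PDE7B is above untreated on every day, and AKAP1 and RGS9 are highest on hCG day 10 (means 1132 and 40).

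The other 19 phosphodiesterases did not pass the F test. PDE4C, of the cAMP-specific PDE4 family, gave 42.4, 45.4, 36.2 and 33.4 on hCG day 18 and 64, 51.7, 68.3 and 68.4 in untreated tissue. All day 18 arrays were lower, with changes of -0.59 on day 15 and -0.52 on day 18 (adjusted p = 0.096 and 0.094). The sizes depended on the alternative, among them the mean over its 2 probe sets. Without single arrays the day 15 change was -0.69 to -0.49 and the day 18 change -0.59 to -0.46. Over all alternatives they were -0.78 to -0.28 and -0.67 to -0.11 (adjusted p up to 0.59 and 0.85). The other probe set of PDE4C is not described here. PDE6D, a carrier of prenylated proteins that was first found with the retinal enzyme, averaged 528.2 ± 85.5 on hCG day 15 and 388.2 ± 23.6 in untreated tissue (SD, n = 4 each), a change of 0.42 ± 0.14 (SE, adjusted p = 0.21).

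PDE6A and PDE12 lie outside the rule for naming genes and were picked after their values were seen. PDE6A, a catalytic subunit of the cGMP enzyme of rod photoreceptors, gave 1338, 462.6, 1351 and 129.7 on hCG day 10 and 356.6, 149.9, 132.1 and 261.6 in untreated tissue. The day 10 arrays ranged from below the lowest untreated array to far above the highest, and the change of 1.42 ± 0.59 (SE, adjusted p = 0.32) did not pass. On day 18 the arrays gave 616.2, 586.2, 646.5 and 501.1, all above the untreated ones, with the same change of 1.42 ± 0.59 (SE, adjusted p = 0.23). Its other probe set had changes of the opposite sign, -0.73 and -0.39 (adjusted p = 0.21 and 0.51). PDE12 averaged 575.0 ± 42.6 on hCG day 18 and 846.1 ± 62.6 in untreated tissue (SD, n = 4 each), a log2 change of -0.55 ± 0.18 (SE, adjusted p = 0.11), with no overlap of arrays.

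Protein kinase A is a complex of regulatory and catalytic subunits. In limma 0 of its 7 genes passed the F test, with 1 at an unadjusted p under 0.05. For all genes the shares were 7.01% and 22.9%. PRKACB, the beta catalytic subunit, gave 1407, 1453, 1088 and 1166 on hCG day 10 and 1641, 1864, 1514 and 1450 in untreated tissue, with overlap. The change was -0.34 ± 0.13 (SE, adjusted p = 0.27), and on day 18 it was 0.13 ± 0.13 (SE, adjusted p = 0.72). The gamma catalytic subunit PRKACG and the alpha catalytic subunit PRKACA gave means of 11.8 and 29.3 over all arrays, so little can be read from them, and both lie outside the naming rule. PRKAR2A, a type II regulatory subunit that lies outside the naming rule, was chosen after its values were seen. It gave 124.8, 92.9, 52.5 and 136.7 on hCG day 18 and 207.8, 153.9, 154.2 and 199.0 in untreated tissue, and all day 18 arrays were lower, but the change of -0.78 ± 0.40 (SE, adjusted p = 0.37) did not pass.

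The probe sets of PRKAR1A, the alpha type I regulatory subunit, disagreed. The chosen one averaged 1014 ± 270.3 on hCG day 18 and 1035 ± 273.7 in untreated tissue (SD, n = 4 each), a change of -0.03 ± 0.31 (SE, adjusted p = 0.99). The other (MmugDNA.5430.1.S1_at) gave 760.2, 929.5, 714.6 and 790.2 on hCG day 18 against 440.0, 425.6, 507.9 and 365.4 in untreated tissue. In that probe set every day 18 array was above every untreated array, and the change of 0.86 ± 0.18 (SE, adjusted p = 0.0074) passed. It passed under all 29 alternatives in which it could be fitted. Which of these represents the transcript was not tested.

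Anchoring proteins tie protein kinase A to membranes and organelles, and 1 of 9 passed the F test, where 7.01% of all genes did. AKAP1, which sits on the outer mitochondrial membrane, gave 1008, 945.7, 1000 and 1575 after 1 day of hCG against 575.9, 606.5, 511.0 and 575.2 in untreated corpora lutea of the same luteal day (probe set MmuSTS.443.1.S1_at). Every hCG array was above every untreated array, and the change was 0.95 ± 0.15 (SE, adjusted p = 0.0032), or 1.93-fold higher. Replicate 4 was the highest of the 4 by far, and the call held without it. Without the 3 arrays apart on component 3 the change was 0.98 (adjusted p = 0.017), and in a fit of these 2 groups alone it did not pass (adjusted p = 0.068).

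In the later groups AKAP1 lay closer to untreated tissue. The means were 696.7 ± 142.8, 693.5 ± 31 and 589.0 ± 33.4 on days 12, 15 and 18 (SD, n = 4 each), beside 567.1 ± 40.2 in untreated tissue. The changes of those days, 0.27, 0.29 and 0.05, did not pass (adjusted p = 0.55, 0.49 and 0.93). On day 15 all hCG arrays (660.8 to 725.7) still lay above all untreated arrays (511.0 to 606.5). The step of day 12 minus day 10 was -0.68 ± 0.15 (SE, adjusted p = 0.051). The other probe sets of AKAP1 passed on day 10 as well, with 1.11 (adjusted p = 0.0045) and 1.12 (adjusted p = 9.7e-04), and in these the step to day 12 passed too, with -0.95 (adjusted p = 0.02) and -0.75 (adjusted p = 0.027).

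AKAP17A, an anchoring protein found with splicing factors, averaged 1247 ± 78.6 on hCG day 18 and 1046 ± 142.0 in untreated tissue (SD, n = 4 each), a log2 change of 0.26 ± 0.15 (SE, adjusted p = 0.47). AKAP8L, a nuclear relative of AKAP8, hardly moved in the chosen probe set, with 0.11 ± 0.11 (SE, adjusted p = 0.75) on day 18. In a dim probe set of it (MmugDNA.3355.1.S1_at) the signals were 35.3, 20.5, 43.3 and 57.6 on hCG day 18 and 5.57, 11.3, 7.19 and 11.2 in untreated tissue. The arrays did not overlap, but all untreated ones lay under the added constant of 16. That change of 1.12 ± 0.23 (SE, adjusted p = 0.008) passed in 27 of 28 alternatives, and a pseudocount of 1 ended it.

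**Figure D3:**
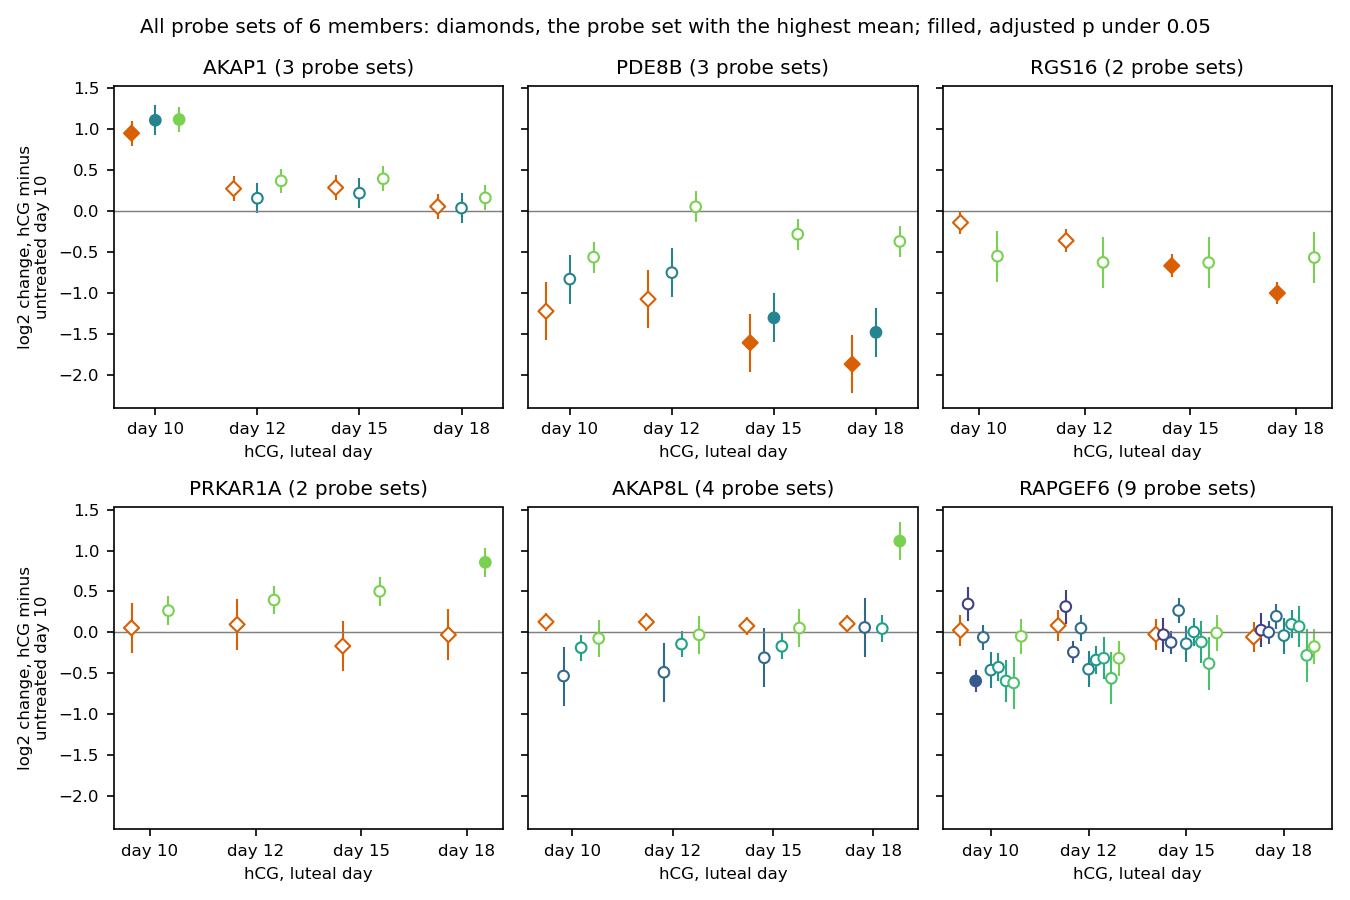
The panels plot the log2 change, hCG minus untreated day 10, with its SE on hCG days 10, 12, 15 and 18 for every probe set of AKAP1, PDE8B, RGS16, PRKAR1A, AKAP8L and RAPGEF6. Diamonds are the probe sets that represent the genes, circles the others, and filled symbols passed the test. The 3 of AKAP1 agree on day 10 (0.95, 1.11 and 1.12), while those of PRKAR1A part on day 18 (-0.03 and 0.86).

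The Rap exchange factors hold the cAMP sensors EPAC1 and EPAC2 (RAPGEF3 and RAPGEF4). In limma 0 of 6 passed the F test, with 0 at an unadjusted p under 0.05. Among all genes the shares were 7.01% and 22.9%. The EPAC genes lie outside the naming rule and are given for their role. RAPGEF3 averaged 99.1 ± 6.4 on hCG day 18 and 89.6 ± 12.6 in untreated tissue, and RAPGEF4 averaged 595.8 ± 55 on hCG day 18 and 654.3 ± 194.9 in untreated tissue (SD, n = 4 each). Their changes were 0.13 ± 0.16 (SE, adjusted p = 0.8) and -0.09 ± 0.20 (SE, adjusted p = 0.9). RAPGEF2, a Rap exchange factor at cell junctions, averaged 2474 ± 367.0 on hCG day 18 and 2927 ± 152.3 in untreated tissue (SD, n = 4 each). The lower RAPGEF5 signal of hCG day 12, 83.9 ± 37.7 against 130.7 ± 28.7 in untreated tissue, overlapped and gave -0.61 ± 0.24 (SE, adjusted p = 0.39).

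RAPGEF6 is a close relative of RAPGEF2. Of its 9 probe sets, 1 passed on day 10, where the hCG arrays gave 416.7, 424.6, 338.0 and 305.4 and the untreated arrays 593.2, 520.0, 509.1 and 637.2, with no overlap. Its change of -0.59 ± 0.14 (SE, adjusted p = 0.046) lay just inside the threshold and passed in 11 of 29 alternatives (adjusted p up to 0.16). It ended under the replicate block, when the 3 arrays apart on component 3 were dropped, and when any of 13 single arrays was, among them each untreated array and hCG day 10 replicate 3 or 4. A pseudocount of 1, median-centring and a fit of the 2 groups alone ended it too. The ending of this probe set's name marks probes that match several transcripts. The probe sets used for AKAP17A, VIPR2 and NR4A1 carry the same ending. The chosen probe set of RAPGEF6 gave 0.03 ± 0.19 (SE, adjusted p = 0.98) on day 10.

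RGS proteins shorten G-protein signals, and 2 of the 18 genes of that name passed the F test, where 7.01% of all genes did. RGS16 was lower and RGS9 higher. RGS16 (probe set MmuSTS.3129.1.S1_at), which acts on inhibitory and Gq subunits, gave 59.9, 58.9, 70.5 and 46.6 on hCG day 18 against 171.9, 105.2, 128.0 and 135.4 in untreated corpora lutea. Every day 18 array was lower. The means over days 10, 12, 15 and 18 were 119.9 ± 15.2, 100.3 ± 6.92, 78.4 ± 11.6 and 59 ± 9.78 (SD, n = 4 each), and the untreated mean was 135.1 ± 27.7. Arrays of day 15 lay below those of day 12, and arrays of day 18 below those of day 15, by narrow gaps (95.7 to 110.6 on day 12, 70.9 to 95.5 on day 15 and 46.6 to 70.5 on day 18). These steps of -0.31 and -0.33 did not pass (adjusted p = 0.96 and 0.65).

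The RGS16 change on day 18 was -1.003 ± 0.14 (SE, adjusted p = 2.8e-04), or 2.00-fold lower, and that on day 15 was -0.67 ± 0.14 (SE, adjusted p = 0.019). Those on days 10 and 12 did not pass (adjusted p = 0.73 and 0.36). The day 18 call held in all 30 alternatives, among them the fit without the 3 arrays apart on component 3 (-1.10, adjusted p = 6.2e-04). That of day 15 ended under median-centring (adjusted p = 0.11), quantile normalisation (adjusted p = 0.067), the mean over probe sets and the 2 groups alone, and without untreated replicate 1 or 4 or hCG day 15 replicate 2 or 4 (adjusted p from 0.053 to 0.08). A dim second probe set had changes of -0.63 and -0.57 on days 15 and 18 and did not pass (adjusted p = 0.44 and 0.41).

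RGS9 (probe set MmugDNA.25068.1.S1_at), best known from photoreceptors and striatum, gave 43, 38.8, 45.7 and 32.4 after 1 day of hCG against 7.61, 13.2, 11.4 and 18.8 in untreated tissue. The groups did not overlap, and the change was 0.97 ± 0.18 (SE, adjusted p = 0.011). These signals are close to the added constant, so the size depends on it: the log2 change was 0.44 with a pseudocount of 64 and 1.62 with 1, and it passed in each of 29 alternatives. Without the 3 arrays apart on component 3 it was 0.98 (adjusted p = 0.034). On days 12, 15 and 18 the means were 22.9 ± 3.49, 18.5 ± 11.2 and 23.8 ± 4.84 (SD, n = 4 each), and no change from untreated passed (adjusted p = 0.39, 0.68 and 0.17).

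RGS2, which acts mainly on Gq subunits, gave 6938, 5899, 7948 and 6213 after 1 day of hCG and 3508, 3598, 2258 and 3718 in untreated tissue. All hCG arrays were higher. The change of 1.06 ± 0.27 (SE, adjusted p = 0.069), or 2.08-fold, did not pass. It passed under median-centring (adjusted p = 0.029), among the brighter 50% of probe sets (adjusted p = 0.038), with array weights (adjusted p = 0.047) and without hCG day 15 replicate 1 or 4 (adjusted p = 0.034 and 0.033). A second, dimmer probe set showed -0.04 ± 0.29 (SE, adjusted p = 0.98).

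RGS12 and RGS7BP had no overlap on day 10. RGS12, a large scaffold-like RGS protein, averaged 80.8 ± 14.9 on hCG day 10 and 50.6 ± 10.6 in untreated tissue (SD, n = 4 each), a log2 change of 0.54 ± 0.18 (SE, adjusted p = 0.18). On day 15 it was 0.57 ± 0.18 (SE, adjusted p = 0.14), and 0.46 to 0.65 without single arrays. Over all alternatives, which include the mean over its 5 probe sets, it was 0.17 to 0.70 (adjusted p up to 0.74). RGS7BP, which anchors RGS7 at the membrane, averaged 19.4 ± 6.59 on hCG day 10 and 35 ± 7.53 in untreated tissue (SD, n = 4 each), a log2 change of -0.53 ± 0.17 (SE, adjusted p = 0.18). None of these changes passed.

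RGS4, which acts on inhibitory and Gq subunits, was chosen after its values were seen. It gave 142.7, 106.0, 62.6 and 112.8 on hCG day 18 and 454.6, 180.5, 393.3 and 176.4 on hCG day 15, with the lowest day 15 array above the highest day 18 array. The step of day 18 minus day 15 was -1.30 ± 0.35 (SE, adjusted p = 0.41), the most negative of the members in that step. On hCG day 10 the arrays gave 281.4, 278.4, 500.1 and 122.8, and untreated tissue 137.4, 120.6, 85.2 and 191.2, with overlap. The day 10 and day 15 changes were 0.96 and 1.01, with adjusted p = 0.24 and 0.21, and neither passed. The other 2 probe sets of RGS4 had day 15 changes of 0.58 and 0.27 (adjusted p = 0.53 and 0.88).

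**Figure D4:**
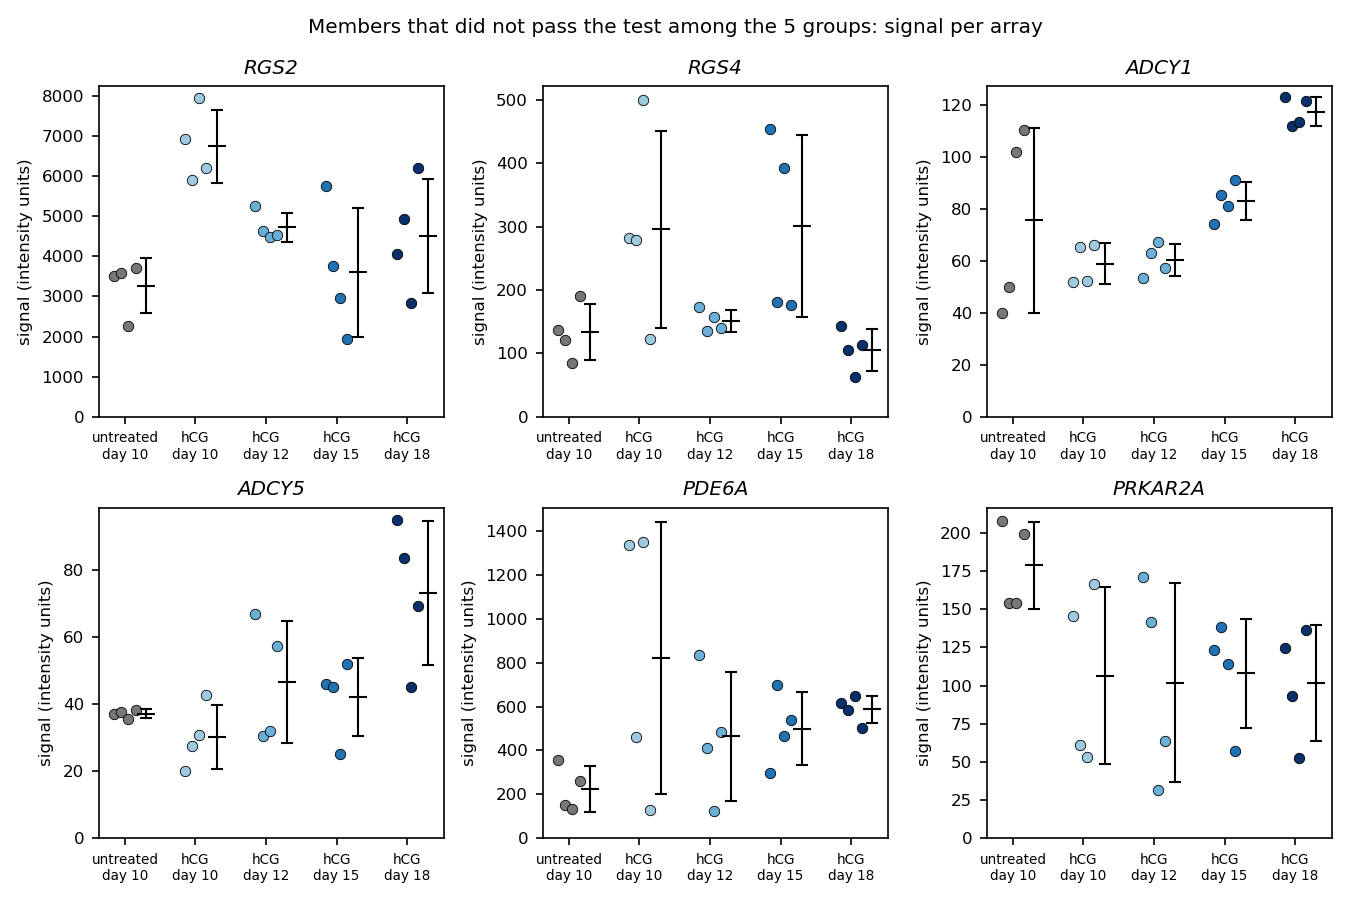
Each panel plots the signal (intensity units, linear axis from 0) of a member that did not pass the F test, with a point per array and the mean with its SD (4 arrays a group), in the order untreated day 10 and hCG days 10, 12, 15 and 18. The 4 hCG day 10 arrays of RGS2 (5899 to 7948) sit above the untreated ones (2258 to 3718), ADCY1 is highest on day 18, and the hCG day 10 arrays of PDE6A spread over 129.7 to 1351.

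CREB factors bind target genes, and 0 of 7 passed limma's F test, with 2 at an unadjusted p under 0.05. Over all genes these shares were 7.01% and 22.9%. CREB1, the factor that protein kinase A phosphorylates, was picked after its values were seen. It averaged 632.1 ± 96.1 on hCG day 18 and 680.3 ± 128.6 in untreated tissue (SD, n = 4 each), a log2 change of -0.09 ± 0.29 (SE, adjusted p = 0.94). On day 12 its mean was 447.2 ± 187.9, a change of -0.66 ± 0.29 (SE, adjusted p = 0.43). CREB5, a relative of ATF2, gave 514.4, 381.1, 494.3 and 433.4 on hCG day 18 and 619.5, 565.7, 725.7 and 602.9 in untreated tissue, all lower, with a log2 change of -0.45 ± 0.16 (SE, adjusted p = 0.15). CREB3 is bound to the endoplasmic reticulum until it is cut, and it gave 494.3, 733.1, 602.2 and 530.7 on hCG day 18 and 351.8, 453.8, 353.4 and 323.9 in untreated tissue, all higher, with a log2 change of 0.64 ± 0.20 (SE, adjusted p = 0.092). Its day 12 change was 0.53 (adjusted p = 0.36), and 0.47 to 0.63 without single arrays. Over all alternatives, which include the mean over its 2 probe sets, it was 0.15 to 0.67. The other probe set of CREB3 is not described here.

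Between successive collection days 0 of the 77 members passed in limma, from day 10 to 12, from day 12 to 15 and from day 15 to 18. At an unadjusted p under 0.05 there were 7, 5 and 8. The shares of all genes that passed were 0.722%, 0% and 0%, and at an unadjusted p under 0.05 they were 10.1%, 6.54% and 8.45%. Arrays of successive days did not overlap for 4, 4 and 6 members (5.19%, 5.19% and 7.79%), against 5.8%, 3% and 4.32% of all genes.

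Genes around the machinery were counted from 5 lists, which were chosen with earlier results of these data known and were not tested as lists. Of the receptors that act through cAMP, 6 of 14 were measured. In limma 0 passed the F test, with 1 at an unadjusted p under 0.05. For all genes, here and in the lists below, the shares were 7.01% and 22.9%. VIPR2, a receptor of vasoactive intestinal peptide, was dim, with 10.5, 5.32, 9.59 and 7.75 on hCG day 10 and 20.8, 22.6, 16.8 and 33 in untreated tissue. All hCG arrays were lower, and the change of -0.68 ± 0.15 (SE, adjusted p = 0.035) passed on that day. It passed in 17 of 28 alternatives, with adjusted p up to 0.12. A pseudocount of 1, median-centring, quantile normalisation and a fit of the 2 groups alone ended it. So did dropping the 3 arrays apart on component 3, untreated replicate 1, 2 or 4, or hCG day 10 replicate 2, 3 or 4. Of 20 G-protein subunits and desensitising proteins 10 were measured, and 0 passed the F test, with 0 at an unadjusted p under 0.05. The smallest F p-values were those of GNAI1, an inhibitory subunit (-0.27 ± 0.13 (SE, adjusted p = 0.33) on day 18), and GRK3, a receptor kinase (0.24 ± 0.17 (SE, adjusted p = 0.59)). Of 12 inhibitors of protein kinase A and other cAMP effectors 8 were measured and 0 passed, with 0 at an unadjusted p under 0.05. The kinase inhibitor PKIA had 0.43 ± 0.26 (SE, adjusted p = 0.48) and the channel subunit CNGA1 0.90 ± 0.66 (SE, adjusted p = 0.59) on day 18.

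Of 16 partners of CREB 14 were measured, and 1 passed the F test, where 7.01% of all genes did. It was SIK2, a kinase that holds the CREB coactivators out of the nucleus. SIK2 gave 226.4, 253.7, 285.0 and 270.6 after 1 day of hCG and 149.0, 221.0, 157.3 and 154.4 in untreated tissue, with no overlap and a log2 change of 0.57 ± 0.13 (SE, adjusted p = 0.045). This call lay just inside the threshold and held in 14 of 29 alternatives (adjusted p up to 0.16). Leaving out any of 13 single arrays ended it, among them untreated replicate 1, 3 or 4 and hCG day 10 replicate 2, 3 or 4. A pseudocount of 1 and a fit of the 2 groups alone also ended the SIK2 call. On day 18 its arrays gave 147.5, 151.9, 149.5 and 123.5, a change of -0.22 ± 0.13 (SE, adjusted p = 0.49).

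Of 19 genes known as targets of cAMP 14 were measured, and 5 passed the F test, where 7.01% of all genes did. The list was chosen with earlier results of these data known, so this share is not read as a result about cAMP targets. The 5 moved in both directions. On day 18 2 of the 14 were higher and 4 were lower, where 2.78% of all genes were higher and 3.31% lower. The median of the 14 was -0.12, beside -0.03 of all genes. AREG, an epidermal growth factor ligand that gonadotropin raises in the ovulating follicle, gave 1053, 749.1, 357.3 and 342.9 on hCG day 18 against 9134, 6367, 7603 and 9356 in untreated tissue. All hCG arrays were lower, and the change was -3.80 ± 0.45 (SE, adjusted p = 6.1e-05), or 13.97-fold. On day 15 it was -3.04 ± 0.45 (SE, adjusted p = 0.0018), and on day 10 -0.18 ± 0.45 (SE, adjusted p = 0.92).

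BTC, another ligand of that receptor family, was lower on every day, with -1.24, -1.46, -1.15 and -0.96 (adjusted p = 0.013, 0.008, 0.018 and 0.027). It gave 161.3, 184.9, 149.9 and 200.9 after 1 day of hCG and 428.8, 368.4, 430.7 and 508.9 in untreated tissue. TNFAIP6, a hyaluronan-binding protein of the expanding cumulus, had a log2 change of -1.37 ± 0.26 (SE, adjusted p = 0.0037) on day 18. NR4A1, an early-response nuclear receptor, had one of -1.02 ± 0.26 (SE, adjusted p = 0.03) on that day, and it did not pass the F test (adjusted p = 0.053). The AREG and TNFAIP6 calls held in 29 of 29 alternatives. The BTC calls held in 27, 27, 24 and 22 of 29 on days 10, 12, 15 and 18, and those of days 12, 15 and 18 ended without the 3 arrays apart on component 3. A fit of the 2 groups alone ended those of days 12 and 15, and a pseudocount of 1 that of day 18. Leaving out untreated replicate 4 ended the BTC calls of days 10, 15 and 18, untreated replicate 1 those of days 15 and 18, and untreated replicate 3 that of day 18. Of the hCG arrays, replicate 3 of day 10, replicate 4 of day 15 and either replicate 3 or 4 of day 18 did so for the calls of their own days (highest adjusted p over the alternatives 0.057, 0.089, 0.093 and 0.094 on days 10, 12, 15 and 18). The NR4A1 call held in 21 of 29, and ended without untreated replicate 1 or 4 and without hCG day 18 replicate 1, 3 or 4 (highest adjusted p 0.11). A pseudocount of 1, median-centring and a fit of the 2 groups alone also ended the NR4A1 call.

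SGK1, a kinase of ion transport, and PPARGC1A, a coactivator of mitochondrial genes, were higher. SGK1 gave 3412, 2869, 3561 and 3503 on hCG day 18 against 2239, 1550, 1813 and 2049 in untreated tissue, a log2 change of 0.81 ± 0.14 (SE, adjusted p = 0.0016). On day 15 the change was 0.74 ± 0.14 (SE, adjusted p = 0.0081). PPARGC1A gave 69.1, 122.8, 139.4 and 56.8 on hCG day 18 against 18.4, 31.9, 19.6 and 30.3 in untreated tissue, a log2 change of 1.41 ± 0.27 (SE, adjusted p = 0.0045), and on day 15 1.16 ± 0.27 (SE, adjusted p = 0.036). In both genes the hCG arrays of days 15 and 18 lay above all untreated arrays. The day 18 calls of both held in 29 of 29 alternatives. On day 15 that of SGK1 held in 27 and that of PPARGC1A in 18. Both ended without the 3 arrays apart on component 3 and in a fit of the 2 groups alone. The PPARGC1A call of day 15 also ended without any 1 of the untreated arrays and without hCG day 15 replicate 1, 2 or 4 (adjusted p up to 0.14). A pseudocount of 1 or 64 ended it too.

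**Figure D5:**
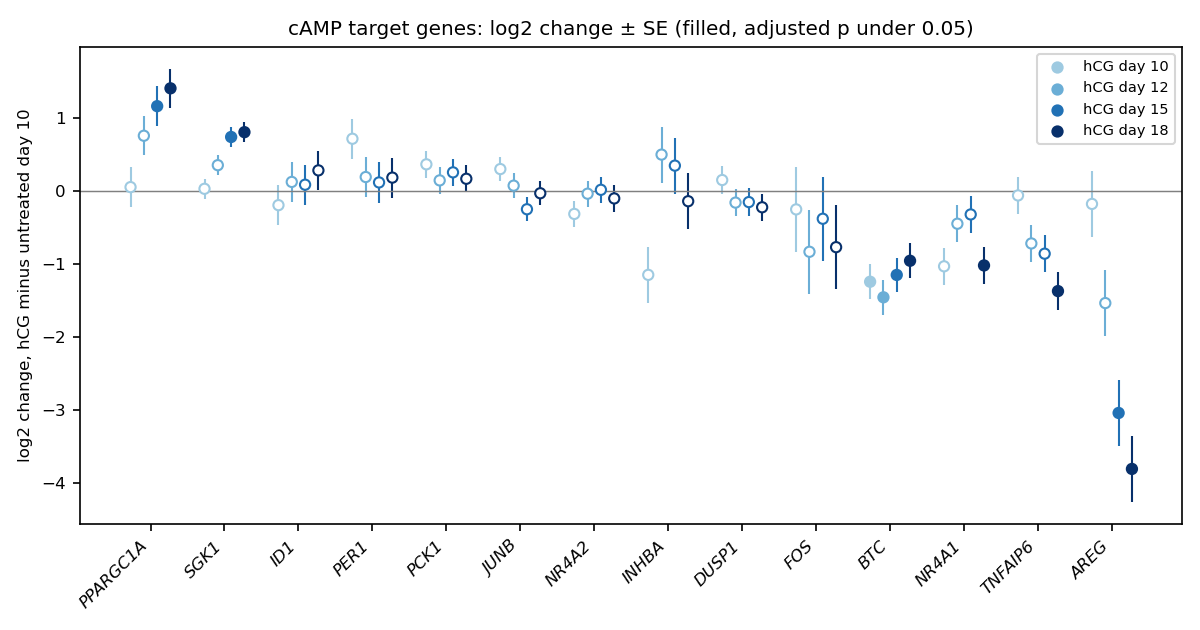
The 14 measured cAMP target genes are drawn with their log2 change, hCG minus untreated day 10, and its SE on hCG days 10, 12, 15 and 18 (light to dark), and filled points passed the test. PPARGC1A (1.41) and SGK1 (0.81) are at the high end on day 18, and AREG (-3.80) and TNFAIP6 (-1.37) at the low end.

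Some markers of the tissue's cells changed on days on which PDE7B, PDE8B, RGS16 and target genes did. On day 15 the 2 that passed were both lower, HSD3B2 with a change of -0.97 ± 0.21 (SE, adjusted p = 0.024) and KCNJ8 with -0.75 ± 0.14 (SE, adjusted p = 0.0097). The HSD3B2 call of that day held in 21 of 29 alternatives and ended when the 3 arrays apart on component 3 were dropped, and when untreated replicate 2, 3 or 4 or hCG day 15 replicate 2 or 4 was (adjusted p up to 0.15). It also ended with a pseudocount of 1 and in a fit of the 2 groups alone. On that day 0 of the 7 macrophage markers passed in limma, with 0 at an unadjusted p under 0.05 and a median change of 0.09. Over all genes the shares of day 15 were 1.97% and 14.6%. All 7 measured macrophage markers (of 8 listed) were above 0 on day 18, where 45.5% of all genes were. The summed signal of the 7 was 7908 to 14363 in hCG day 18 arrays and 3093 to 8620 in untreated ones. The macrophage receptor CSF1R passed, with 1.06 ± 0.23 (SE, adjusted p = 0.012), and the other 6 did not (adjusted p from 0.094 to 0.39). Among all genes 2.78% were higher past the threshold on day 18. Of the 4 measured markers of steroidogenic luteal cells (of 8) 2 passed on day 18 in the lower direction, where 3.31% of all genes did. These were HSD3B2, which makes progesterone (-1.83 ± 0.21 (SE, adjusted p = 4.4e-05)), and FDXR, which passes electrons to the mitochondrial enzymes (-0.75 ± 0.19 (SE, adjusted p = 0.026)). On that day 2 of the 4 were above 0, STAR with 0.23 (adjusted p = 0.62) and FDX1 with 0.02 (adjusted p = 0.97). The call of HSD3B2 held in 29 of 29 alternatives and that of FDXR in 20. The FDXR call ended when the 3 arrays apart on component 3 were dropped, and when untreated replicate 1 or 2 or hCG day 18 replicate 1, 2 or 4 was (adjusted p up to 0.11). A pseudocount of 1, median-centring and a fit of the 2 groups alone ended it too. The summed signal of the 4 was 30560 to 36470 on hCG day 18 and 35046 to 44379 in untreated tissue.

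Of 7 measured smooth muscle and pericyte markers (of 10) 1 passed on day 18, the channel KCNJ8, with -1.06 ± 0.14 (SE, adjusted p = 1.9e-04). Among all genes 3.31% were lower past the threshold on day 18. On that day 3 of the 7 markers were above 0, and the median change of the 7 was -0.06. Their summed signal was 6643 to 7597 on hCG day 18 and 6952 to 7923 in untreated tissue. Of 8 endothelial markers (of 9) 0 passed the F test in limma, with 0 at an unadjusted p under 0.05. Over all genes these shares were 7.01% and 22.9%. The endothelial sums were 8243 to 9878 on hCG day 18 and 8253 to 9489 in untreated tissue. Fibroblast markers (5 of 6 measured) summed to 8702 to 15966 on hCG day 18 and 11711 to 16577 in untreated tissue. Lymphocyte markers (5 of 8) summed to 668 to 1959 on hCG day 18 and 620 to 1045 in untreated tissue. That sum mostly follows PTPRC, which averaged 677.0 over all arrays, beside 78.8 for CD8A and 46.4 for NKG7. On day 18 PTPRC had a change of 0.53 (adjusted p = 0.54) and CD8A -0.20 (adjusted p = 0.87), and 4 of the 5 were above 0. Red cell markers (2 of 4) summed to 172 to 395 on hCG day 18 and 112 to 157 in untreated tissue. The B-cell markers CD79A and MS4A1 had mean signals under 16. In no list were all markers under 16, and the part of these cells in the results was not tested.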

How the data were processed

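Messenger RNA of corpora lutea was measured on 20 Affymetrix rhesus arrays, in 5 groups of 4 taken from the labels. The deposited values are linear signal intensities per probe set that the authors made with the GCOS software, per the submitters' processing notes (the version is not given in the sources used here). The 2% trimmed means of the arrays were all 200.01 to 200.02, so arrays were scaled to a common level by the authors, and a saturated or cross-hybridising probe set stays as it was deposited. No detection calls were used here, and arrays have no read depth. Median signals were 31.59 to 46.38 per array.

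Of 52865 probe sets 158 controls were left out. limma (version 3.58.1, R version 4.3.3) was fitted to log2(signal + 16) of all 20 arrays, with a mean per group, eBayes, an F test over the 4 contrasts against untreated, these contrasts and 3 steps between hCG days. Benjamini-Hochberg adjustment ran over 52707 probe sets within each comparison. Symbols came from the platform annotation, where 24956 probe sets carry 1 symbol, 361 several and 27390 none. Genome positions and sequences were not used. The members and lists were chosen with earlier results of these data known. By rule the text names members that passed, the member of each family with the highest mean log2 signal, the 3 higher and 3 lower members with the smallest p per day, members whose other probe sets passed, and genes of the other lists that passed (or up to 2 as values). Genes named outside the rule are mostly said to be so where they are described. AKAP7, ADCY3, ADCY6, ADCY7, ADCY8, ADCY9 and some marker genes were named outside it without that label. Groups did not overlap where every array of one lay above every array of the other. The procedure was tested on simulated data. Alternatives were pseudocounts of 1 and 64, median-centring, quantile normalisation, the brighter 50% of probe sets, array weights, the mean over probe sets, a replicate block, the 2 groups alone and leaving out each array. The fit without the 3 arrays apart on component 3 was chosen after seeing the data.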

Additional observations from a re-analysis of the deposited data

Results flagged for a closer look

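In 5 of 115 groups of the named members 1 array stood far from the other 3, which chance alone gives in about 1 in 20 groups. PDE7B was 465.4 in hCG day 10 replicate 3, with the others at 240.5 to 256.4. AKAP1 was 1575 in hCG day 10 replicate 4, with the others at 945.7 to 1008. AKAP17A was 809.1 in hCG day 10 replicate 1, below the other arrays at 1125 to 1184. AKAP8L was 228.5 in hCG day 18 replicate 2, below the others at 293.3 to 307.9. RGS2 was 2258 in untreated replicate 3, below the others at 3508 to 3718.

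The change of AKAP1 differed between hCG days 12 and 10 by a test of that difference in 2 of its 3 probe sets, by -0.75 (adjusted p = 0.027) and -0.95 (adjusted p = 0.02). These steps passed in 19 and 21 of 29 alternatives, and ended without hCG day 10 replicate 3 or 4, without hCG day 12 replicate 1, 2 or 4, and without the 3 arrays apart on component 3. A pseudocount of 1 and a fit of the 2 groups alone also ended both. Median-centring and quantile normalisation ended the step of -0.75.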

How the results depend on the processing

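No member that passed turned its direction in any alternative. The day 18 calls of PDE7B, PDE8B and RGS16 held in 30 of 30 alternatives, the day 10 call of RGS9 in 29 of 29 and that of AKAP1 in 29 of 30. The day 15 calls held in 20 of 30 for PDE7B, 24 for PDE8B and 22 for RGS16. The 5 members of the F test became 3 without the 3 arrays apart on component 3, and 4 to 6 without single arrays. The 2 of day 10 became 1 (RGS9) in a fit of the 2 groups alone, and 2 to 3 without single arrays. The 3 of day 15 became 1 with a pseudocount of 1 (RGS16), in the 2 groups alone (PDE8B) and without the 3 arrays (RGS16), and 0 to 3 without single arrays. There was 1 without untreated replicate 1 or 4 (PDE8B), without untreated replicate 2 or hCG day 15 replicate 1 (RGS16), and 0 without hCG day 15 replicate 4. The 3 of day 18 became 5 in the 2 groups alone, with PDE6A and PDE12, and 3 to 4 without single arrays. For the step of day 12 minus day 10 there was 1 member (AKAP1) in place of 0 with a pseudocount of 64, quantile normalisation, the brighter 50% of probe sets, array weights and the mean over probe sets, and 0 to 1 without single arrays. The later steps had 0 in each of 30 alternatives. The cause was not tested. No gene of the other lists that passed turned its direction either.

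Replicate numbers gave no clear pairing of the samples, but a partial one is not excluded. Over 40 same-numbered pairs the deviations correlated at -0.28 to 0.36 (median 0.03), 14 were over 0.1, and 15 had their own number as the best match of 4. In hCG day 18 against hCG day 10, replicates 1, 3 and 4 matched best with their own number (0.31, 0.105 and 0.159). In hCG day 15 against untreated all 4 arrays matched best with their own number (0.04 to 0.26, 3 over 0.1), a hint from the data that the labels do not bear on. With the replicate number as a block, day 12 had 1 member in place of 0 (PDE7B, 1.01, adjusted p = 0.028), and the other counts stayed within 1.5 times of those reported. Probe sets near the added constant of 16, RGS9, VIPR2 and the dim one of AKAP8L among them, have the least certain sizes of change.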

Other observations

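The following groups were picked after their values were seen and were not tested as groups. All 9 adenylyl cyclases were above 0 in the step of hCG day 12 minus hCG day 10, by 0.03 to 0.42 (median 0.18), where 49.5% of all genes were above 0. None of them passed in this step, and they share the same arrays. In the step of day 15 minus day 12, 2 of the 9 were above 0 (median -0.16). On hCG day 10 against untreated 2 were above 0 (median -0.21). PDE5A, a cGMP enzyme of smooth muscle, had 5 probe sets, all below 0 on hCG days 10 and 18 (-0.73 to -0.36 on day 10 and -0.74 to -0.31 on day 18), and none passed.

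RGS18, RGS1 and CREB3L1 were also picked after their values were seen. RGS18, an RGS protein of blood cells, averaged 133.3 ± 38.6 on hCG day 18 and 81.4 ± 22.7 in untreated tissue (SD, n = 4 each), a log2 change of 0.61 ± 0.22 (SE, adjusted p = 0.14). RGS1, known from lymphocytes, averaged 46.8 ± 32.7 on hCG day 18 and 27.1 ± 11.3 in untreated tissue, a log2 change of 0.44 ± 0.41 (SE, adjusted p = 0.7). Of the 7 measured macrophage markers 1, CSF1R, was higher past the threshold on that day, where 2.78% of all genes were. The other macrophage markers had adjusted p from 0.094 to 0.39, and their part was not tested. CREB3L1, a CREB factor of the endoplasmic reticulum, averaged 103.2 ± 38.8 on hCG day 18 and 163.5 ± 42 in untreated tissue (SD, n = 4 each), a log2 change of -0.61 ± 0.24 (SE, adjusted p = 0.2).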
